A study of Mus musculus with 9 samples.

Results

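Slc39a11 encodes ZIP11, a zinc transporter, and its gene on mouse chromosome 11 was examined for differentially methylated regions (DMRs) between the hypothalamus of control pups and of pups exposed to modified maternal separation (MMS). Members were chosen by position: every listed DMR that overlaps the GENCODE gene body (chr11:113244853-113650079, mm10, minus strand) or the 10 kb on either side. The gene itself was selected on its number of DMRs for its length, a measure from the same comparison of MMS with control, so the density, directions and sizes given here are a description and were not tested. The rule found 10 of the 12949 listed DMRs. All 10 touch the gene body and 0 lie wholly in the flanks.

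The study collected hypothalami of male C57/Bl6 mice at P6. Control pups and MMS pups came from the same litters. MMS pups were taken from the dam daily from P4 to P6 and turned on their backs by hand while apart. DNA methylation was measured by methylated DNA immunoprecipitation (meDIP) with the BI-MECY antibody, which recovers fragments that carry methylated cytosine. There were 3 control and 3 MMS meDIP libraries, each made from a pool of animals, with 2 inputs and 1 IgG control. The deposited table holds the authors' mean of each group as log2 normalised reads and no value per library, so the spread between pools, the overlap of the libraries and the read counts behind each value are not known from it. No error can be given beside a group mean, and a fold here is the ratio of 2 means without a replicate check. The hypothalamus was dissected whole, so a shift in the mix of its cells and a change within a cell type cannot be told apart.

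ZIP proteins move zinc into the cytosol, from outside the cell or from an organelle, and ZnT proteins move it the other way. Metallothioneins bind zinc in the cell, and the transcription factor encoded by Mtf1 switches on zinc-responsive genes. In the brain, zinc is loaded into synaptic vesicles of some glutamatergic neurons and modulates receptors when released. DNA methylation in mammals lies mostly on cytosines of CpG sites. It is usual across the bodies of transcribed genes and usually low at CpG-rich promoters. A meDIP signal rises with the number of methylated cytosines in a fragment, and so with the CpG content of a region as well as with its methylation.

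The gene spans 405 kb and has 8 GENCODE transcripts. The principal transcript starts at 113565756 and has 10 exons over 321 kb. In 4 transcripts the start lies about 84.3 kb further upstream, in a stretch that overlaps the first part of Cog1 on the opposite strand. DMRs are numbered from 1 at the 3′ end of the gene to 10 nearest its principal start. The reference sequences below (GRCm38, plus strand, lower case with CpG sites in capitals) are of the DMRs that the results turn on. DMR 6 had the largest difference of those higher in MMS, DMR 8 the largest of those higher in control, DMR 5 the highest group mean, DMR 10 lies nearest the principal start, and DMR 1 has the most CpG for its length. For DMRs over 300 bp the central 300 bases are given, at chr11:113432304-113432603 for DMR 6, chr11:113421574-113421873 for DMR 5 and chr11:113544803-113545102 for DMR 10. DMR 8 is whole (chr11:113486629-113486789), and for DMR 1 only the 55 bases beyond the end of the gene in both GENCODE and RefSeq are shown (chr11:113244796-113244850), RefSeq ending the gene 2 bases further on.
DMR 6: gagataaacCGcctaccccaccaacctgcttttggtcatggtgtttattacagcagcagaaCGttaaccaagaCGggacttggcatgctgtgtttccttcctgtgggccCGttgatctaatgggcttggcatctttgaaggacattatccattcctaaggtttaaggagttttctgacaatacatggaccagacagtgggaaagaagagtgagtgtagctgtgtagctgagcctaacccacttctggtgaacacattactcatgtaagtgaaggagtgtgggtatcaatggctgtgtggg
DMR 8: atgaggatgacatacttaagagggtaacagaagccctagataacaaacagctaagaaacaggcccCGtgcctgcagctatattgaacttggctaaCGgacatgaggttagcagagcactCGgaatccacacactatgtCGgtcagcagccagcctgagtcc
DMR 5: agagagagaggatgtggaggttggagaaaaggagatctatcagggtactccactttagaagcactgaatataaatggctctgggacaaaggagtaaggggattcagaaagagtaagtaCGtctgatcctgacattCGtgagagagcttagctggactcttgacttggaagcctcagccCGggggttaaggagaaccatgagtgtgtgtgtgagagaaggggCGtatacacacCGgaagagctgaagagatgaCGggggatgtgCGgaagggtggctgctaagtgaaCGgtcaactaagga
DMR 10: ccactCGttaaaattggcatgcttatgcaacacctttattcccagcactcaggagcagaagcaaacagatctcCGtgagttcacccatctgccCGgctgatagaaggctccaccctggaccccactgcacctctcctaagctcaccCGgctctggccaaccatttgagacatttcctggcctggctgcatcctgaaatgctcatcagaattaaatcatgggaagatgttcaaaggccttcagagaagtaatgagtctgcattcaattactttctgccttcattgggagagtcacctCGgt
DMR 1: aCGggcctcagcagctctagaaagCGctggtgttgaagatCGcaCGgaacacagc
The central 300 bases of DMR 6 hold 4 CpG sites, as many as the 161 bases of DMR 8. Those of DMR 5 hold 8 and those of DMR 10 hold 5, and the 55 bases of DMR 1 hold 4.

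MMS had the higher mean in 5 of the 10 DMRs, and control in the other 5. Over all listed DMRs 62.6% were higher in MMS. A log2 difference of at least 2 in size was found in 7 of 10, against 69.9% of all listed DMRs. The control mean lay within 0.5 of the lowest control value of the table in 4 of 10, against 33.0% of all. These shares are set by the contrast that chose the gene, and nothing is read from them about Slc39a11.

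**Figure D1:**
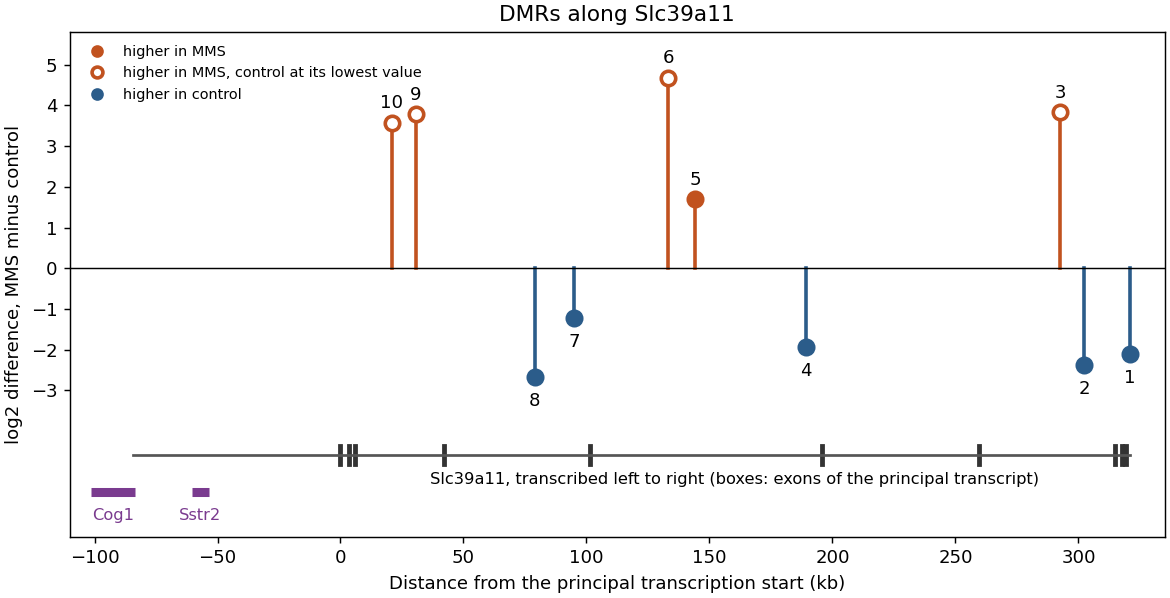
Log2 difference of the group means (MMS minus control) of the 10 DMRs against distance of their centres from the principal transcription start in kb, with exons of the principal transcript as boxes. The 5 DMRs above 0 and the 5 below are interspersed along the gene, open circles mark the 4 with control at its lowest value, and no DMR stands left of the principal start, where Sstr2 and Cog1 lie.

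The DMRs higher in MMS were DMRs 3, 5, 6, 9 and 10. In 4 of these (DMRs 3, 6, 9 and 10) the control mean was -0.17, exactly the lowest control value in the table and equal to 0.889 normalised reads. The MMS means of these 4 were 3.66 in DMR 3, 4.51 in DMR 6, 3.62 in DMR 9 and 3.41 in DMR 10 on the log2 scale. In normalised reads these were 12.6, 22.8, 12.3 and 10.6. Their log2 differences, 3.83, 4.68, 3.79 and 3.58, depend on where that lowest value was set, so no fold is given. DMR 6, in an intron of the principal transcript at chr11:113431907-113432999, had the highest MMS mean of these 4. DMRs 3, 9 and 10 are thinly covered in MMS too. Of all listed DMRs 15.8%, 14.4% and 7.86% had a lower mean in their higher group. Their means over all 6 libraries, 2.76, 2.72 and 2.52, follow from the MMS means, since control was at its lowest value.

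DMR 5 was the only DMR higher in MMS in the gene with both groups above their lowest values. Its mean was 4.87 in control and 6.56 in MMS, or 29.2 and 94.4 normalised reads, a ratio of 3.23. This is the highest group mean of the gene, and 99.3% of all listed DMRs had a lower mean in their higher group. The region (chr11:113420833-113422613) is also the widest of the 10, at 1781 bp, and wider than 97.6% of all DMRs. It holds 54 CpG sites, up to 10 within 100 bp, of the 152 in all 10 DMRs. Its log2 difference was 1.69, and 5.52% of all DMRs higher in MMS showed a smaller one. Control was near its lowest value in 52.7% of those DMRs, so this rank depends on where that value was set. DMR 5 and DMR 6 lie 9.29 kb apart in the same intron and had the same direction, one from a well-covered control and the other from a control at the lowest value.

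The DMRs higher in control were DMRs 1, 2, 4, 7 and 8, and in all 5 both groups stood above their lowest values. DMR 8 had a mean of 5.18 in control and 2.51 in MMS, or 36.3 and 5.70 normalised reads. This ratio of 6.36 was the largest among the 5. DMR 2 had 4.62 in control and 2.25 in MMS, a ratio of 5.17. DMR 1 had 4.64 and 2.52, a ratio of 4.35, and DMR 4 had 5.10 and 3.17, a ratio of 3.81. In DMR 7 the means were 5.75 and 4.52, or 53.8 and 22.9 normalised reads, the highest control mean of the gene and the smallest ratio, 2.35. Control means of these 5 lay between 4.62 and 5.75, a narrower range than that of their MMS means, which ran from 2.25 to 4.52.

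**Figure D2:**
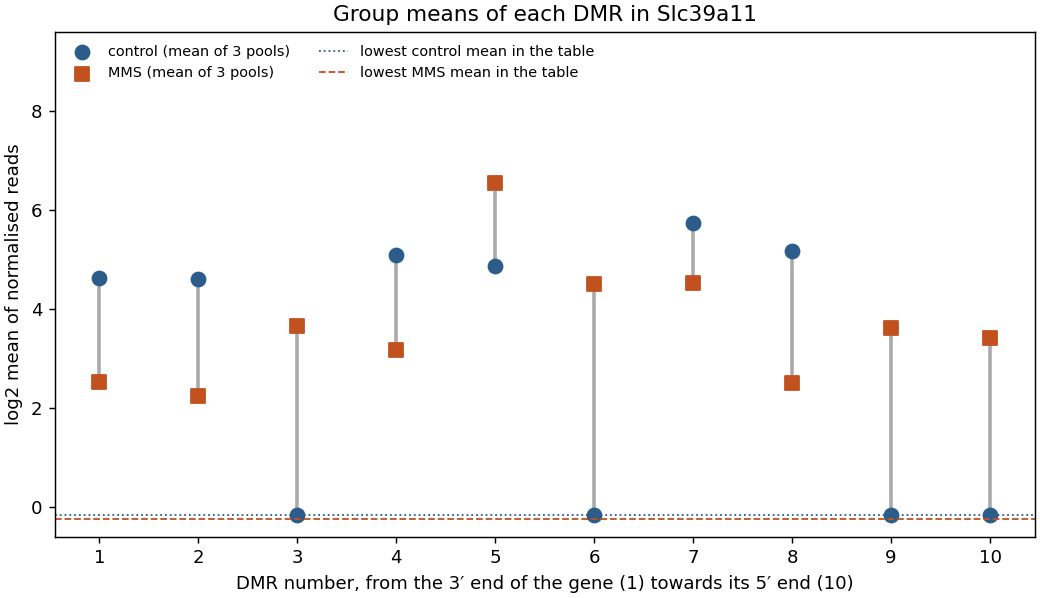
Log2 mean of normalised reads in control (circles) and MMS (squares), each the authors' mean of 3 pools, for the 10 DMRs in order along the gene, with the lowest group means of the table as lines. Control sits on its lowest value, -0.17, in DMRs 3, 6, 9 and 10, while the lowest MMS mean is 2.25, in DMR 2; no error bars can be drawn.

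As medians, MMS minus control on the log2 scale came to 3.79 for the 5 DMRs higher in MMS and to -2.12 for the 5 higher in control. Over all listed DMRs these medians were 3.43 and -1.73. Control was near its lowest value in 4 of the 5 and in 52.7% of all DMRs higher in MMS, so the medians of that direction depend on where the lowest value was set and are not compared. In the 5 higher in control the median control mean was 5.10, where all DMRs of that direction had 5.13, and the median MMS mean was 2.52, where they had 3.33. In the 5 higher in MMS the median MMS mean was 3.66 against 4.09 over all of that direction. The MMS mean was near its lowest value in 0 DMRs of Slc39a11 and in 223 of all listed DMRs.

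By position, 9 of the 10 DMRs lie wholly within introns. The exception is DMR 1, at chr11:113244796-113244959, which covers the end of the gene: 107 of its 164 bp are the end of the 3′ UTR in the last exon and 57 bp lie beyond it in GENCODE. The intronic DMRs stand 5.99 to 41.3 kb from the nearest exon of any transcript, DMR 7 being the closest and DMR 5 the farthest. Counted from the 5′ end of the principal transcript, intron 3 holds DMRs 9 and 10, both higher in MMS, and intron 4 holds DMRs 7 and 8, both higher in control. Intron 5 is the longest at 94.1 kb and holds 3 DMRs, of which DMRs 5 and 6 were higher in MMS and DMR 4 in control. Intron 7 holds DMR 2, higher in control, and DMR 3, higher in MMS, 9.31 kb apart. Intron 6 holds 0 DMRs over 63.8 kb, and the 4 short introns, each of 1.22 to 3.55 kb, hold 0.

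The direction changed at 5 of the 9 steps between neighbouring DMRs. Gaps between neighbours ran from 9.13 to 103 kb with a median of 18.3 kb, so no pair lay within the 1 kb used to join neighbours. The widest gap, between DMRs 3 and 4, contains intron 6. DMR 7 (chr11:113470085-113471401) lies within Gm16487, a pseudogene on the opposite strand. Its sequence had no alignment of at least 100 bp and 95% identity elsewhere in the reference, which also held for 9 of the 10 DMRs. The exception was DMR 10, where 16.7% of the length was covered by 5790 alignments elsewhere, the longest of 174 bp, so reads from repeats could fall on that piece of it.

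The 84.3 kb upstream of the principal start hold 0 DMRs, where the widest gap between DMRs within the principal transcript was 103 kb. The upstream stretch has 1.57 CpG sites per 100 bp and the rest of the gene 1.56. Whether CpG content bears on the count of DMRs in the upstream stretch was not tested. This stretch contains the whole of Sstr2, which encodes a somatostatin receptor that inhibits hormone release and neuronal firing, and the start of Cog1, a subunit of a Golgi tethering complex. The last DMR ends 20.2 kb from the principal start. RefSeq places its starts slightly differently from GENCODE. Of its 2 promoter windows for Slc39a11 (250 bp before to 50 bp after a RefSeq start), the one just upstream of the principal GENCODE start (chr11:113565766-113566065) holds 13 CpG sites and the one by the upstream end of the gene (chr11:113650043-113650342) holds 14. The windows of Cog1 and Sstr2 hold 21 and 27, and no DMR overlaps any of the 4. Regions that were tested but not listed are not analysed here, so a stretch without a DMR cannot be called unmethylated or unchanged. Just beyond the 10 kb limit, the nearest DMR on the 5′ side lies 13.9 kb from the gene body (chr11:113663984-113664191, over Cog1 and Fam104a), with 5.56 in control and 4.01 in MMS. On the 3′ side the nearest lies 179 kb away in the noncoding gene 2610035D17Rik (chr11:113064513-113066185), with 6.54 in control and 5.00 in MMS. Both were higher in control and covered in both groups.

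CpG content did not enter the rule itself, but it went with DMR density across long genes and so is not independent of the choice of the gene. Among the 10 DMRs the median was 1.82 CpG per 100 bp, from 1.06 in DMR 2 to 4.27 in DMR 1, and 8 of 10 lay above the median of all listed DMRs, 1.32. Pooled over their 7508 bp the density was 2.02, against 1.45 pooled over all DMRs and 1.56 over the whole gene body. DMR 1 was denser in CpG than 99.2% of all DMRs and DMR 5 than 95.5%, and these differ in direction. The DMRs cover 1.84% of the gene body and 2.33% of its 6340 CpG sites. GC content ran from 46.3% to 53.2%, with 7 of 10 above the median of all DMRs (47.4%). The share of soft-masked (repeat) bases was at most 28.7%, in DMR 10, and below the median of all DMRs (20.6%) in 8 of 10. DMRs 2 and 8 had no soft-masked base.

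**Figure D3:**
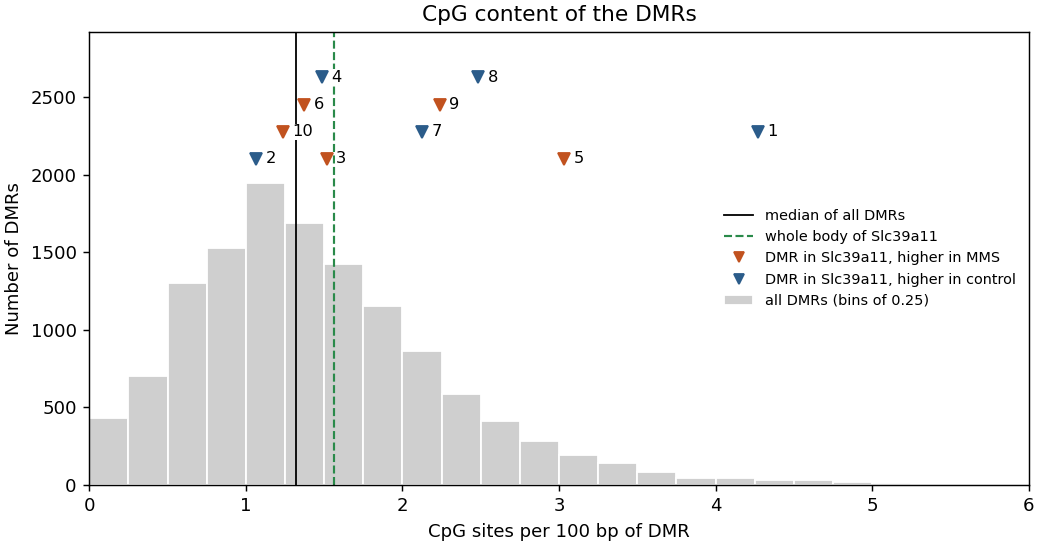
CpG sites per 100 bp of all listed DMRs as a histogram (bars, number of DMRs; values above 6 are not drawn), with the 10 DMRs of Slc39a11 as numbered triangles placed at arbitrary heights. The ranges of the directions overlap, and 8 of 10 stand right of the median of all DMRs at 1.32.

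Widths differed between the directions in this gene. The 5 DMRs higher in MMS were 447 to 1781 bp wide with a median of 1093 bp, and the 5 higher in control were 161 to 1317 bp with a median of 282 bp. Over all listed DMRs the order was the other way, with medians of 516 bp in those higher in MMS and 596 bp in those higher in control. The 3 members under 300 bp, DMRs 1, 2 and 8, were all higher in control. The ranges overlap, since DMRs 4 and 7, higher in control, were 539 and 1317 bp wide, and the difference was not tested. Median CpG content had the other order, at 1.52 per 100 bp in the DMRs higher in MMS and 2.13 in those higher in control, with overlapping ranges of 1.24 to 3.03 and 1.06 to 4.27. The medians of all listed DMRs had that order too, 1.26 and 1.43.

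Slc39a11 had 2.47 DMRs per 100 kb of gene body. Over the principal transcript alone, which leaves out the upstream stretch with 0 DMRs, it had 3.12. Other genes were counted over whole bodies only, so 3.12 is not set beside them. Of 567 protein-coding gene bodies of at least 300 kb, the median was 0.322 per 100 kb and 115 had 0 DMRs. Slc39a11 was the third densest and shared the eighth largest number of DMRs with Asic2 and Rbms3. Nearest to it in density were Smyd3 (2.47 per 100 kb, 14 DMRs), a protein methyltransferase gene, then Ldlrad4 (2.68, 9 DMRs), which encodes an inhibitor of TGF-beta signalling, and Prdm16 (2.18, 7 DMRs), a transcription factor gene. The density is the only likeness measured. Smyd3 also had an even split, with 7 of 14 higher in MMS, whereas Ldlrad4 had 2 of 9 and Prdm16 had 6 of 7. Camta1, which encodes a calmodulin-binding transcription activator, had 17 DMRs at 1.80 per 100 kb with 6 higher in MMS. Auts2, a gene of neuronal development, had 11 at 0.995 per 100 kb with 4 higher in MMS. The control mean was near its lowest value in 4 of 10 DMRs of Slc39a11, 2 of 14 of Smyd3, 2 of 9 of Ldlrad4, 5 of 7 of Prdm16, 2 of 17 of Camta1 and 1 of 11 of Auts2, where the share of all listed DMRs was 33.0%. Slc39a11 lay within the range of these genes.

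The body of Slc39a11 is rich in CpG for a long gene. At 1.56 CpG per 100 bp it was exceeded by 3 of the 567 long gene bodies, whose median was 0.731. Over these bodies DMR density went with CpG content (Spearman's rho 0.651 across 567 genes, which share libraries and are not replicates). Counted per 100 CpG sites Slc39a11 had 0.158 DMRs, against a median of 0.0474, and ranked 11 in place of 3. Among the 57 long gene bodies with the most CpG per 100 bp, where the median was 1.00 DMR per 100 kb, it ranked 2, a comparison added after the values were seen. Whether CpG content bears on the DMR density of this gene was not tested.

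**Figure D4:**
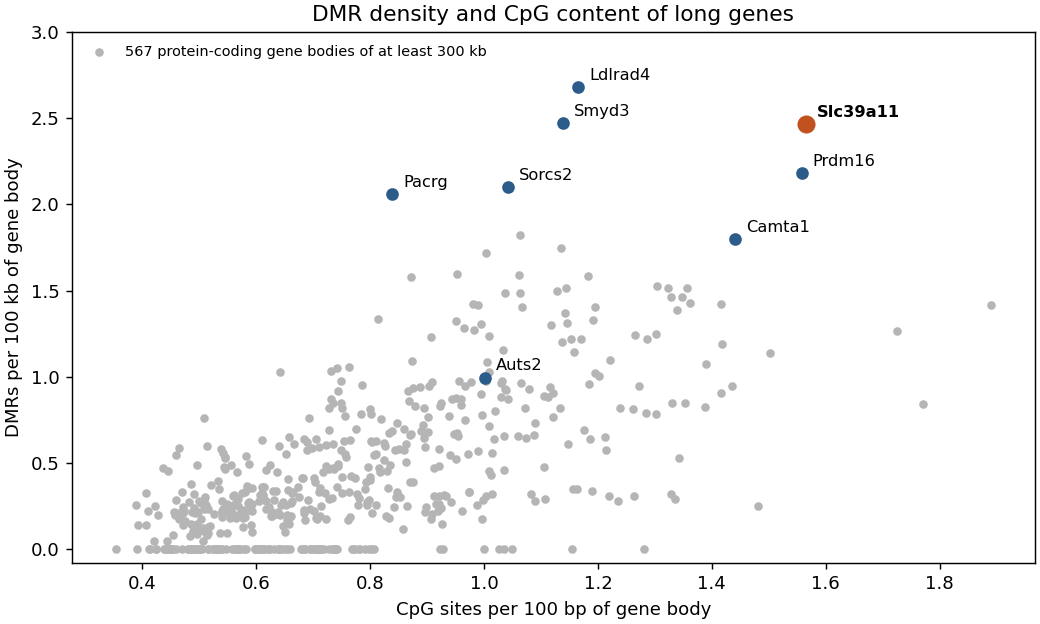
DMRs per 100 kb against CpG sites per 100 bp for the 567 protein-coding gene bodies of at least 300 kb (1 point each), with the named genes labelled. Slc39a11 stands at 1.56 CpG per 100 bp and 2.47 DMRs per 100 kb, near Prdm16, while Smyd3 and Ldlrad4 reach a like or higher density with fewer CpG sites per 100 bp.

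Around the gene the DMR density was lower than within it, which the choice of the gene by its density made likely. The 1 Mb on the 3′ side, a sparse stretch with Sox9, a transcription factor of glia and cartilage, as its only protein-coding gene in GENCODE, held 7 DMRs, 4 of them higher in MMS. On the 5′ side there were 11, 6 of them higher in MMS. These are 0.700 and 1.10 per 100 kb, where chromosome 11 as a whole had 0.691. Of 8 protein-coding neighbours 3 had a DMR in the gene body, where 18.9% of all protein-coding genes did. Cog1 and Fam104a, 2 of the 3, share a single DMR, higher in control, and Sdk2, a synaptic adhesion gene, had 4, of which 3 were higher in MMS. Sox9, Sstr2, D11Wsu47e, Cpsf4l and Cdc42ep4 had 0.

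The other genes of zinc transport and binding were counted by the same overlap with the gene body. Among the 13 other ZIP genes 3 had 1 DMR each: Slc39a8, Slc39a13 and Slc39a14. Of 10 ZnT genes Slc30a7 had 1, and the 4 metallothionein genes and Mtf1 had 0. In all, 4 of 28 of these genes (14.3%) had a DMR, where 18.9% of all protein-coding genes did. Their median length was 17.7 kb, against 17.4 kb for all protein-coding genes, and the longest was 107 kb. Slc39a8, whose product carries zinc and manganese into cells, had a DMR higher in MMS on chromosome 3 (135854234 to 135854622), with 2.94 in control and 5.18 in MMS. Slc30a7, a transporter of the secretory pathway, had one on the same chromosome (115977131 to 115977599) with control at -0.17 and MMS at 3.65. Control was at its lowest value there, as in DMRs 3, 6, 9 and 10, and near it in 52.7% of all DMRs higher in MMS. In Slc39a14, a carrier of zinc, iron and manganese, the means were 4.79 and 2.83 (chromosome 14, 70324885 to 70325843), higher in control. Slc39a13, which exports zinc from intracellular stores, had 5.61 and 4.43 (chromosome 2, 91064130 to 91064496), also higher in control. With 1 DMR in each of 4 genes, the 2 of 4 higher in MMS cannot be set apart from the 62.6% of all listed DMRs.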

How the data were processed

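Hypothalamic meDIP libraries (3 control, 3 MMS) were analysed with inputs and an IgG control by the authors, who used Torrent Suite for alignment of Ion Proton reads to mm10, MACS2 (version 2.1 in the submitters' processing notes) for broad peaks over inputs, and DiffBind with DESeq2 for the comparison of groups. The deposited log2 values are the authors' means of normalised reads over all libraries, control and MMS, of which untreated was read as control and treated as MMS. Means over all libraries matched those of the 2 groups within 0.00965. The deposited fold, p-value and FDR columns hold the authors' own comparison and were not used. No test was run: the table has no value and no depth per library. The members and lists were chosen with earlier results of these data known. Neighbours lay within 1 Mb, and zinc genes, sequences shown and genes named followed a fixed rule. Overlap meant at least 1 bp. Genes were those of GENCODE (vM21), and CpG, GC and soft-masked shares came from GRCm38. Alignments used BLAST 2.17.0 (at least 100 bp, 95% identity). Counting steps were tested on simulated data. Python 3.11.15, pandas 2.3.3, numpy 2.4.6, scipy 1.17.1, pysam 0.24.0 and matplotlib 3.10.9 were used.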

Additional observations from a re-analysis of the deposited data

How the results depend on the processing

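The number of DMRs was 10 with the gene body alone, with the RefSeq extent, by centre, and with neighbours joined, and 7 with a log2 difference of at least 2, a width of at least 300 bp or a mean of at least 3. The share higher in MMS was 50% as reported and 57.1% with that minimum difference. It was 71.4% with that minimum width, which drops DMRs 1, 2 and 8, all higher in control. With that minimum mean it was 28.6%, which drops DMRs 3, 9 and 10, all higher in MMS with control at its lowest value. The majority direction thus depends on the filter. The share moved to 16.7% with the 4 DMRs at the lowest control value left out, all of them higher in MMS. Over all listed DMRs the same filters gave 80.6% for the difference, 63.1% for the width, 51.8% for the mean and 45.3% without DMRs near a lowest value of either group. The rank of Slc39a11 in density moved from 3 to 11 per 100 CpG sites and to 5 with DMRs of at least 300 bp. No paired analysis was possible because the table holds group means only, and for the same reason no library could be left out and the planned limma fit was not run. Group means without their spread limit every difference.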
